A study of Mus musculus with 2 samples.

Results

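The mitochondrial carrier family (Slc25) was followed through polyA mRNA sequencing of testis. The tissue came from 1 male of the inbred strain C57BL/6J, an adult mouse of 10 weeks. Members were the protein-coding genes whose GENCODE name starts with Slc25a and a number. There were 47 of them among the 43346 genes of the deposited tables, of which 21474 were protein-coding. All RNA came from 1 biological replicate and was sequenced as technical replicate 2, made in 2015 per the labels, and technical replicate 1, so that no second animal, genotype or treatment enters any value. The RNA was extracted with a kit made for fatty tissue, and the library size range was labelled 350 to 450.

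Carrier proteins of this family sit mostly in the inner mitochondrial membrane and exchange or import the small molecules that mitochondria and cytosol share: nucleotides, phosphate, organic acids, amino acids, acylcarnitines, cofactors and iron. They are built from repeats of a similar fold, with the substrate site in the centre of the membrane. The family is known in the testis for Slc25a31, an ADP/ATP carrier of germ cells that male mice need for meiosis and fertility, and for other forms that replace or accompany a relative used in the rest of the body. Several members are also markers of metabolism elsewhere, such as iron import in red cell precursors and the citrate export that feeds lipid synthesis.

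The deposited tables held 20675551 expected counts in replicate 2 and 31995372 in replicate 1. Over the 18581 genes that averaged at least 10 counts, a chi-square comparison of the libraries gave 577 per degree of freedom, and 461 over the members, where sampling noise alone gives about 1. The libraries were therefore not copies of each other, and each level below is given per library as TPM, a level scaled for transcript length and depth. The tissue label was checked against marker genes. All 7 germ cell markers and all 4 Leydig cell markers were at 1 TPM or more in both libraries, as were 4 of 5 Sertoli cell markers, with Amh at 2.41 TPM in replicate 2 and listed at 0 in replicate 1. The germ cell markers differed between the libraries. They summed to 49349 TPM in replicate 2 and 8883 TPM in replicate 1, with Prm2, a protamine of spermatids, at 15928 TPM and 45.4 TPM, and Sycp3, a protein of meiotic chromosomes, at 263 TPM and 807 TPM. By the comparison of libraries described below, 4 of the 7 were higher in replicate 2 and 2 were lower, and 2 were higher and none lower with its correction for GC content. Of all tested genes, 32.1% were higher and 23.9% lower, and 11.1% and 9.04% with the correction. The cause of these differences between technical libraries of 1 biological replicate was not tested. Within either library, the number of cells of a type and the RNA per cell cannot be told apart in RNA from whole tissue.

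The stretch of sequence that marks the ADP/ATP carriers shows how close members can be in sequence. It is printed here because the germ cell form and its somatic relatives are the main comparison within the family. Each line is 120 coding bases around the arginine and methionine signature of ADP/ATP carriers, 5′ to 3′, spliced, from the GENCODE M21 transcripts on mm10. Capitals mark the 60 positions where the 3 genes do not all have the same base.
Slc25a31: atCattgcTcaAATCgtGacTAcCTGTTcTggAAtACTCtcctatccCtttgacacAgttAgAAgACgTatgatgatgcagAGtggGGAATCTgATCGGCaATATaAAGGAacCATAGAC
Slc25a4: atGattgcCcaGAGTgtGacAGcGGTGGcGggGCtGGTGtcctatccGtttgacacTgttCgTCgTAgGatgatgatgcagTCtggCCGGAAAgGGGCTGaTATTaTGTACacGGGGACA
Slc25a5: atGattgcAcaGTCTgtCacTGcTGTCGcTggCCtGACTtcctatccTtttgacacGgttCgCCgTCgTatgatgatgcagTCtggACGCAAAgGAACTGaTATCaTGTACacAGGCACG
The Slc25a31 stretch lies between bases 40722671 and 40724906 of chromosome 3, plus strand, and the signature within it starts at codon 248. In the stretches of Slc25a4 (chromosome 8, 46207598 to 46208494, minus strand) and Slc25a5 (chromosome X, 36797780 to 36798409, plus strand) the signature starts at codon 235. Each interval spans an intron that is left out of the printed bases. Over the whole coding sequence, Slc25a31 shared 66.6% of aligned bases with Slc25a4 and 66.6% with Slc25a5, and its longest run of identical bases was 14 with Slc25a4 and 21 with Slc25a5. Slc25a5 and Slc25a4 shared 77.4%. The coding sequence of Slc25a31 has 320 codons, against 298 in both relatives, and its transcript has 6 exons, against 4 in each of them.

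All 47 members were in the tables, and 37 of them (78.7%) were at 1 TPM or more in both libraries, against 54.6% of all protein-coding genes. Another 8 reached 1 TPM in replicate 2 only, and Slc25a15 and Slc25a48 were below it in both. At 10 TPM or more stood 26 members in replicate 2 and 17 in replicate 1, which is 55.3% and 36.2% of the family, against 39.4% and 31.4% of protein-coding genes. The median member had 13.1 TPM in replicate 2 and 5.19 TPM in replicate 1, and the median protein-coding gene had 4.60 TPM and 1.89 TPM in the same libraries. The members together held 1499 TPM in replicate 2 and 797 TPM in replicate 1, or 1148 ± 496 TPM (SD, n = 2 technical libraries), which is 0.150% and 0.0797% of all TPM. One gene made much of that gap. Without Slc25a39 the sums were 939.6 TPM in replicate 2 and 748.7 TPM in replicate 1.

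**Figure D1:**
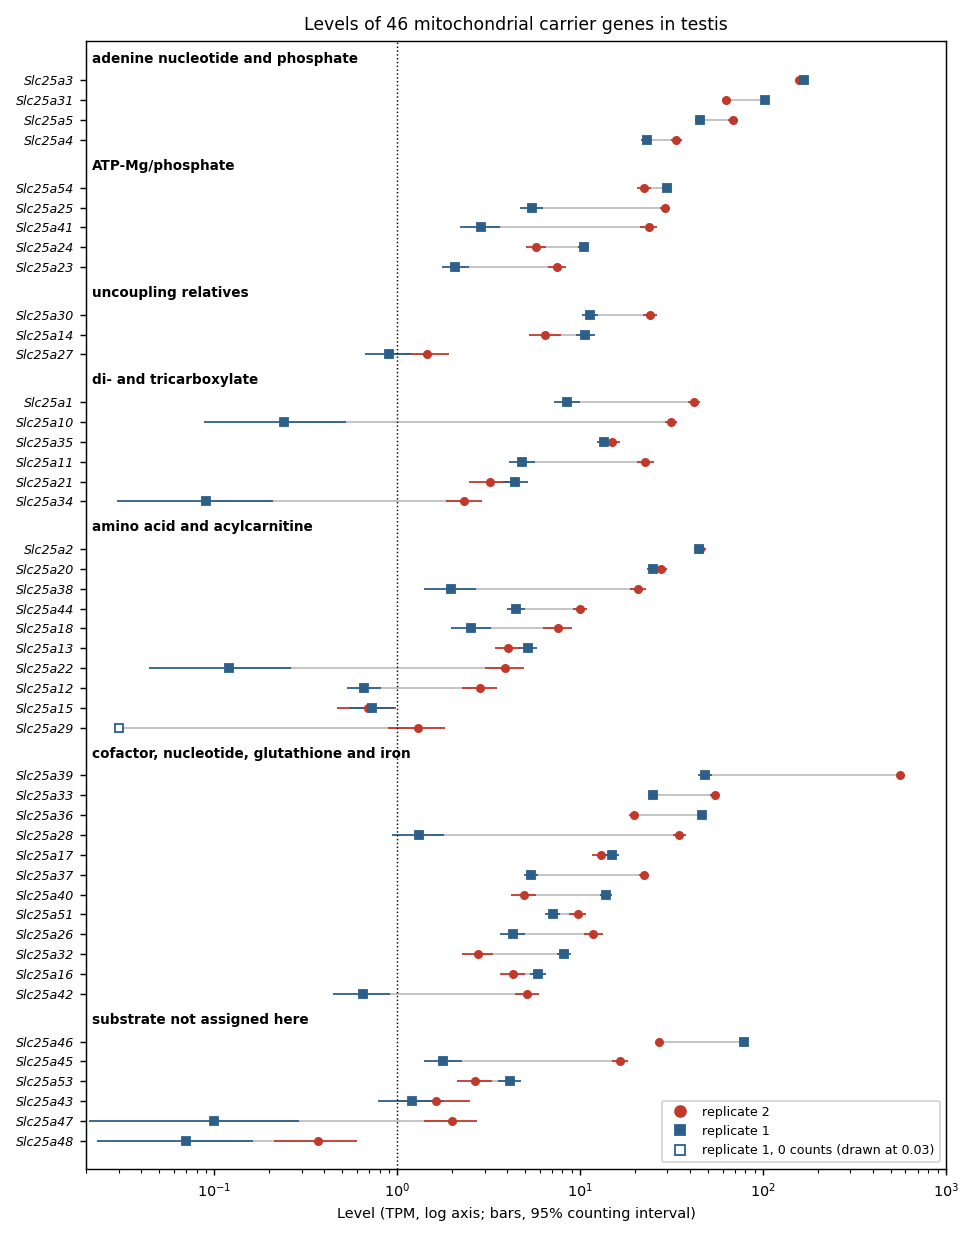
Level of 46 of the 47 carrier genes in TPM on a log axis, grouped by role, with replicate 2 as circles and replicate 1 as squares. Bars are 95% Poisson intervals for counting error, grey lines join the libraries of a gene, the dotted line is 1 TPM, and the open square is a gene with 0 counts drawn at a fixed place. Slc25a3 and Slc25a2 sit at nearly the same level in both libraries, while Slc25a39, Slc25a28 and Slc25a10 lie far apart.

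The adenine nucleotide and phosphate carriers supply ATP synthase with its substrates and export its product. These 4 genes held 21.4% of the family's TPM in replicate 2 and 42.5% in replicate 1, with sums of 321 TPM and 339 TPM. Slc25a3, the phosphate carrier, had 157 TPM in replicate 2 (95% interval 151 to 163) and 168 TPM in replicate 1 (163 to 173). It ranked 2 and 1 among the members in those libraries. Slc25a31 had 62.8 TPM in replicate 2 (59.3 to 66.4) and 103 TPM in replicate 1 (99.1 to 106). Slc25a5, the widely expressed ADP/ATP carrier on the X chromosome, had 68.4 TPM (64.2 to 72.8) in replicate 2 and 45.3 TPM (42.6 to 48.2) in replicate 1. Slc25a4, the form that dominates in heart and skeletal muscle, was the lowest of the group, at 33.6 TPM (31.3 to 35.95) in replicate 2 and 23.1 TPM (21.6 to 24.7) in replicate 1. These intervals are Poisson limits on the counts and cover counting error only. They treat reads as independent molecules, although the reads carry no molecular identifiers and are not independent molecules.

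Within a library, the germ cell carrier stood above Slc25a4 in both: the ratio of their TPM was 1.87 in replicate 2 and 4.44 in replicate 1, or 0.90 on the log2 scale (exact 95% interval 0.77 to 1.03) and 2.15 (2.04 to 2.26). Against Slc25a5 the order turned round between the libraries. The log2 ratio of Slc25a31 over Slc25a5 was -0.12 in replicate 2 (-0.25 to -0.0022) and 1.18 in replicate 1 (1.08 to 1.28), so these libraries did not settle which of them leads. The part of the germ cell markers' difference between the libraries, given above, in the level of Slc25a31 was not tested. The ratio of Slc25a5 over Slc25a4, a pair chosen after values were seen, was 1.03 in replicate 2 and 0.97 in replicate 1 on the log2 scale, so Slc25a5 had about the same lead in both. Of the 7 heart and skeletal muscle markers, Myh6, Myl2, Actc1, Ckm and Acta1 were below 1 TPM in both libraries. Tnni3 had 56.8 TPM in replicate 2 and 5.52 TPM in replicate 1, and Tnnt2 had 7.42 TPM and 1.16 TPM there. The summed level of the markers was 65.97 TPM in replicate 2 and 7.20 TPM in replicate 1; its part in the level of Slc25a4 was not tested.

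Slc25a3 makes alternative proteins through alternative versions of the third exon, of which one form is known from heart and skeletal muscle and the other from most tissues. Both exons are printed because the transcripts that differ by them could be told apart in the deposited table. Capitals mark the 77 bases that align as identical, which is 63.1% of the 122 bases of the shorter exon.
Slc25a3-206: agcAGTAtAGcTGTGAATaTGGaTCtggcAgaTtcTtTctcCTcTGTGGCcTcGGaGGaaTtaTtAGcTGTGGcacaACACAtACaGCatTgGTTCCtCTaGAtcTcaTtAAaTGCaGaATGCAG
Slc25a3-201: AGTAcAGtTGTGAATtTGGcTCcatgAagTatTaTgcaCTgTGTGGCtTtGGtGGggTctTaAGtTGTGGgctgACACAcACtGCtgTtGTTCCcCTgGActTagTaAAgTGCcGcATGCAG
The exon of 125 bases lies at chr10:91122207-91122331 and the exon of 122 bases at chr10:91121922-91122043, both on the minus strand of mm10, and both lines come from the GENCODE M21 transcripts. Protein-coding transcripts with the 122-base exon held 85.6 TPM in replicate 2 and 50.6 TPM in replicate 1. The protein-coding transcript with the 125-base exon held 17.1 TPM in replicate 2 and 13.9 TPM in replicate 1. Among protein-coding transcripts the shorter exon was thus 5.01 times and 3.63 times as abundant, in the same order of libraries. Transcripts of other types were not checked for either exon. The rest of the gene's level lay largely in annotated transcripts with a retained intron, at 23.3% in replicate 2 and 38.0% in replicate 1, and in a short processed transcript (Slc25a3-205, 10.9% and 23.4%). Protein-coding transcripts held 65.5% of the level in replicate 2 and 38.4% in replicate 1.

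The ATP-Mg/phosphate carriers adjust the adenine nucleotide content of the matrix, and most are switched by calcium through an N-terminal domain. All 5 were detected, with 88.2 TPM in sum in replicate 2 and 50.5 TPM in replicate 1. Slc25a54, a relative of Slc25a24, had 22.4 TPM (20.4 to 24.5) in replicate 2 and 29.7 TPM (27.9 to 31.7) in replicate 1. Slc25a25 had 28.9 TPM (27.3 to 30.7) in replicate 2 and 5.42 TPM (4.69 to 6.23) in replicate 1. Slc25a41, a short form that lacks the calcium-binding domain, had 23.6 TPM (21.2 to 26.3) in replicate 2 and 2.86 TPM (2.20 to 3.65) in replicate 1. Slc25a25 and Slc25a41 were the highest of the group in replicate 2 and stood below Slc25a54 and Slc25a24 in replicate 1. Slc25a24 had 5.75 TPM (5.07 to 6.50) in replicate 2 and 10.45 TPM (9.71 to 11.2) in replicate 1, and Slc25a23 had 7.48 TPM (6.66 to 8.38) and 2.08 TPM (1.75 to 2.46).

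Set against each other within a library, the relatives in this group kept their order in some pairs and not in others. Slc25a54 exceeded Slc25a24 by 1.96 on the log2 scale in replicate 2 (1.74 to 2.19) and by 1.51 in replicate 1 (1.37 to 1.65), a pair chosen after values were seen. Slc25a25 exceeded Slc25a23 by 1.95 (1.77 to 2.14) in replicate 2 and by 1.38 (1.06 to 1.70) in replicate 1. In 3 pairs the sign turned round. The log2 ratio of Slc25a25 over Slc25a24 was 2.33 in replicate 2 and -0.95 in replicate 1, that of Slc25a41 over Slc25a24 was 2.04 and -1.87, and that of Slc25a23 over Slc25a24 was 0.38 and -2.33. Slc25a54 and Slc25a24 also lie side by side on chromosome 3, 6461 bases apart on the same strand, and Slc25a41 and Slc25a23 on chromosome 17, 2056 bases apart. Their coding sequences remain distinct, with 67.4% identity between Slc25a54 and Slc25a24.

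**Figure D2:**
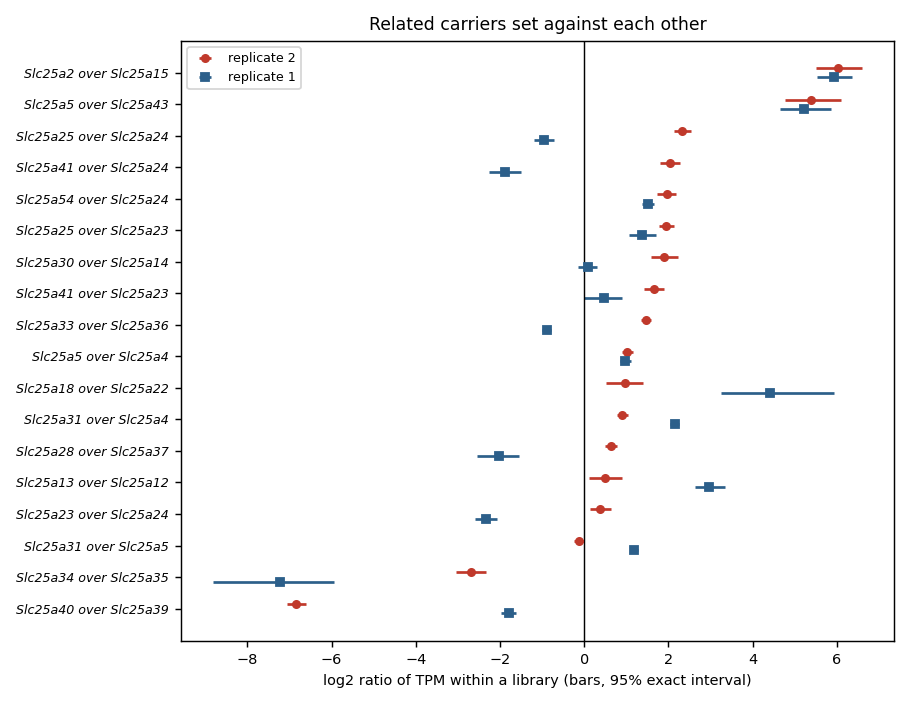
Log2 ratio of TPM between related carriers within a library, with replicate 2 as circles, replicate 1 as squares and exact 95% intervals for counting error as bars. Positive values mean that the gene named first is higher. Slc25a2 over Slc25a15, Slc25a5 over Slc25a43 and Slc25a5 over Slc25a4 nearly coincide in both libraries, while Slc25a31 over Slc25a5 and the pairs of Slc25a25, Slc25a41 and Slc25a23 with Slc25a24 cross 0.

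The uncoupling relatives are named after the uncoupling proteins, whose fold they share, and what they carry is less settled. Slc25a30 had 24.1 TPM (22.1 to 26.3) in replicate 2 and 11.3 TPM (10.2 to 12.5) in replicate 1. Slc25a14, which is X-linked, had 6.45 TPM (5.25 to 7.84) in replicate 2 and 10.7 TPM (9.45 to 12.1) in replicate 1. Slc25a30 exceeded Slc25a14 by 1.90 on the log2 scale in replicate 2 (1.59 to 2.22), and the interval of that ratio in replicate 1, -0.15 to 0.31, included 0. Slc25a27, known from brain, had 1.46 TPM in replicate 2 and 0.90 TPM in replicate 1.

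The di- and tricarboxylate carriers move intermediates of the citric acid cycle and of the malate-aspartate shuttle. The 6 genes summed to 116 TPM in replicate 2 and 31.5 TPM in replicate 1, and 4 of them were detected in both libraries. Slc25a1, the citrate carrier, had 42.1 TPM (39.03 to 45.2) in replicate 2 and 8.49 TPM (7.22 to 9.92) in replicate 1. Slc25a11, the oxoglutarate carrier of the shuttle, had 22.7 TPM (20.4 to 25.2) in replicate 2 and 4.82 TPM (4.09 to 5.64) in replicate 1. Slc25a10, the dicarboxylate carrier, lay furthest apart between the libraries in this group, with 31.3 TPM (29.1 to 33.6) from 755 counts in replicate 2 and 0.24 TPM (0.088 to 0.52) from 6 counts in replicate 1. Slc25a21, which carries oxodicarboxylates from lysine breakdown, had 3.20 TPM in replicate 2 and 4.43 TPM in replicate 1.

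Slc25a35 and Slc25a34 are relatives of a fungal oxaloacetate carrier. Slc25a35 was higher in both libraries, at 14.9 TPM in replicate 2 and 13.4 TPM in replicate 1, and the log2 ratio of Slc25a34 to it was -2.68 (-3.05 to -2.33) and -7.22 (-8.81 to -5.94). The level of Slc25a35 is uncertain, because 1151 bases of its exons overlap those of Rangrf on the opposite strand, and Rangrf had 669 TPM in replicate 2 and 196 TPM in replicate 1. Whether the authors' counting used strand is not given in the sources used here. Shorter overlaps with a gene on the other strand that reached 1 TPM in either library exist for Slc25a25 (379 bases with Naif1), Slc25a11 (189 bases with Rnf167), Slc25a21 (189 bases with Pax9), Slc25a23 (168 bases with Gm17168), Slc25a26 (144 bases with Lrig1) and Slc25a18 (32 bases with Atp6v1e1). Gm17168 had 3.48 TPM in replicate 2 and 0 TPM in replicate 1.

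Among the amino acid and acylcarnitine carriers, Slc25a2 stood highest and differed little between the libraries. This ornithine carrier, encoded by 1 exon on chromosome 18 and known in mouse as a relative of the 7-exon gene Slc25a15, had 45.2 TPM (41.97 to 48.5) in replicate 2 and 44.5 TPM (41.9 to 47.1) in replicate 1. Slc25a15, the ornithine carrier of the urea cycle in liver, had 0.69 TPM (0.47 to 0.98) in replicate 2 and 0.73 TPM (0.55 to 0.96) in replicate 1. The ratio of Slc25a2 to Slc25a15 was 65.5 in replicate 2 and 60.9 in replicate 1, or 6.03 (5.51 to 6.60) and 5.93 (5.52 to 6.35) on the log2 scale. Their coding sequences shared 74.8% of aligned bases, with no identical run over 20 bases. The lead of Slc25a2 was thus about the same in both libraries.

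Slc25a20, which brings acylcarnitines in for fatty acid oxidation, had 27.5 TPM (25.4 to 29.8) in replicate 2 and 24.9 TPM (23.3 to 26.6) in replicate 1. Slc25a38, a glycine carrier needed for haem synthesis, had 20.8 TPM (18.7 to 23.01) in replicate 2 and 1.97 TPM (1.40 to 2.69) in replicate 1. Slc25a44, a carrier of branched-chain amino acids, had 10.0 TPM in replicate 2 and 4.45 TPM in replicate 1. The calcium-regulated aspartate/glutamate carriers were low: Slc25a13 had 4.02 TPM in replicate 2 and 5.19 TPM in replicate 1, and Slc25a12 had 2.85 TPM and 0.66 TPM. Slc25a13, the form used in liver, exceeded Slc25a12, the form of brain and muscle, by 0.50 on the log2 scale in replicate 2 (0.11 to 0.90) and by 2.98 in replicate 1 (2.63 to 3.34). For Slc25a12 the log2 ratio of replicate 2 over replicate 1 was 2.11 in TPM but 0.27 in scaled counts, because the length used for the gene was 2334 bases in replicate 2 and 6351 bases in replicate 1. Of the glutamate carriers, Slc25a18 had 7.56 TPM in replicate 2 and 2.54 TPM in replicate 1. Its relative Slc25a22 had 3.88 TPM in replicate 2 and 0.12 TPM in replicate 1, so Slc25a18 led by 0.96 (0.52 to 1.41) in replicate 2 and by 4.40 (3.24 to 5.94) in replicate 1.

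Slc25a29, a carrier of basic amino acids, had 1.30 TPM (0.89 to 1.83) from 32 counts in replicate 2 and 0 counts in replicate 1. A count of 0 allows up to 3 counts. Against that floor, with the 32 counts taken as exact, the scaled count was 13.5-fold higher in replicate 2. The exact interval of the ratio, which covers counting error in both libraries, had a lower limit of 10.3. With the correction for GC content described below, the log2 ratio of Slc25a29 was 2.16 and the gene was not called. Slc25a47, a liver carrier, starts head to head with Slc25a29 on chromosome 12, with 162 bases between the genes, and had 1.98 TPM (1.40 to 2.72) in replicate 2 and 0.10 TPM (0.021 to 0.29) in replicate 1. Both genes were thus low, and both lower in replicate 1. Of the 4 liver markers, Alb had 3.64 TPM in replicate 2 and 1.34 TPM in replicate 1, and the sum of the 4 was 7.78 TPM and 3.67 TPM; their part in the level of Slc25a47 was not tested.

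The largest role group held carriers of cofactors, nucleotides, glutathione and iron, 13 genes with 767 TPM in sum in replicate 2 and 183 TPM in replicate 1. Slc25a39, which brings glutathione into mitochondria, had 559 TPM (549 to 570) in replicate 2 and 48.2 TPM (44.0 to 52.8) in replicate 1. It ranked 1 among the members in replicate 2 and 4 in replicate 1, and it held 37.3% of the family's TPM in replicate 2 and 6.05% in replicate 1. Its relative Slc25a40, thought to carry the same substrate, had 4.90 TPM (4.19 to 5.70) in replicate 2 and 13.9 TPM (12.9 to 14.9) in replicate 1. Slc25a39 was the higher of the pair in both libraries, by a log2 ratio of Slc25a40 over Slc25a39 of -6.83 (-7.06 to -6.61) in replicate 2 and -1.80 (-1.97 to -1.63) in replicate 1. On counts not scaled by length that log2 ratio was -6.04 in replicate 2 and 0.65 in replicate 1, so the order in replicate 1 turned without length scaling.

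The pair is shown in sequence because its members differ in base composition as well as in level. Each line holds the first 120 coding bases from the GENCODE M21 transcripts, 5′ to 3′ and spliced, with G and C in capitals.
Slc25a39-201: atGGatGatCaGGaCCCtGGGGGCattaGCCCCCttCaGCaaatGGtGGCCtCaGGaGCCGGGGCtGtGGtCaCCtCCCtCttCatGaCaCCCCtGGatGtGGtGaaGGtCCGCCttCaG
Slc25a40-202: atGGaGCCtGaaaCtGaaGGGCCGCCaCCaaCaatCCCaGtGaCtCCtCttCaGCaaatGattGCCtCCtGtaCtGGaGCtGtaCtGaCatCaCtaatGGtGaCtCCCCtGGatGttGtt
The first line lies on the minus strand of chromosome 11 between bases 102406387 and 102406639 of mm10, and the second on the plus strand of chromosome 5 between bases 8427417 and 8428648. The stretches hold 60.8% G and C in Slc25a39 and 50.8% in Slc25a40, and over the whole coding sequence the values were 59.1% and 40.9%. The coding sequences shared 58.9% of aligned bases. The transcripts behind the level of Slc25a39 also differed between the libraries. Slc25a39-201, the protein-coding transcript of 1685 bases, held 92.8% of the gene's level in replicate 2 and 0.84% in replicate 1. Slc25a39-205, of 728 bases, held 0.34% in replicate 2 and 56.7% in replicate 1, and Slc25a39-210, of 416 bases, held 0% and 34.3%. The mean length used for the gene was therefore 1622 bases in replicate 2 and 630 bases in replicate 1. As TPM is scaled by length, the ratio of TPM between the libraries, 3.54 on the log2 scale, was smaller than the ratio of scaled counts, 4.91.

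Slc25a33 and Slc25a36 are carriers of pyrimidine nucleotides. Slc25a33 had 54.5 TPM (51.5 to 57.6) in replicate 2 and 24.98 TPM (23.4 to 26.6) in replicate 1. Slc25a36 had 19.7 TPM (18.4 to 20.97) in replicate 2 and 46.4 TPM (44.8 to 48.1) in replicate 1. The log2 ratio of Slc25a33 over Slc25a36 was 1.47 (1.35 to 1.59) in replicate 2 and -0.89 (-1.002 to -0.79) in replicate 1, so the order of this pair turned round as well.

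The mitoferrins import iron, Slc25a37 in red cell precursors and Slc25a28 in other cells. Slc25a28 had 34.9 TPM (32.2 to 37.7) in replicate 2 and 1.32 TPM (0.93 to 1.81) in replicate 1. Slc25a37 had 22.3 TPM (20.9 to 23.9) in replicate 2 and 5.38 TPM (4.92 to 5.87) in replicate 1. The log2 ratio of Slc25a28 over Slc25a37 was 0.64 (0.49 to 0.79) in replicate 2 and -2.03 (-2.54 to -1.55) in replicate 1. The protein-coding transcript Slc25a37-201 held 18.5% of the gene's level in replicate 2 and 13.3% in replicate 1, and the rest lay mostly in an annotated nonsense-mediated decay transcript (65.2% and 33.4%) and a retained-intron transcript (14.7% and 53.3%). All 5 red blood cell markers were higher in replicate 2 by the test described below, which called 32.1% of all tested genes higher. With the correction for GC content 3 of them were also called higher, beside 11.1% of all tested genes. The 5 markers held 328 TPM in sum in replicate 2 and 27.2 TPM in replicate 1. Hba-a2 was listed at 0 in replicate 1, where Hba-a1 had 132 counts. Their corrected log2 ratios were 7.19 for Hba-a2 and -0.72 for Hba-a1. The part of red blood cells in the level of Slc25a37 was not tested.

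Slc25a17, a peroxisomal carrier of coenzyme A and related nucleotides, had 13.1 TPM in replicate 2 and 14.9 TPM in replicate 1. Slc25a51, the carrier of NAD, had 9.67 TPM in replicate 2 and 7.07 TPM in replicate 1. Slc25a16 had 4.28 TPM in replicate 2 and 5.87 TPM in replicate 1, and Slc25a32, a carrier of folate and flavin cofactors, had 2.77 TPM and 8.14 TPM. Of these 4, Slc25a32 was the one called different between the libraries by the test described below. The S-adenosylmethionine carrier Slc25a26 had 11.8 TPM in replicate 2 and 4.30 TPM in replicate 1. Slc25a42, a coenzyme A carrier, had 5.12 TPM in replicate 2 and 0.65 TPM in replicate 1.

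Among the 6 members to which no substrate was assigned here, Slc25a46 led. It is a protein of the outer mitochondrial membrane that takes part in mitochondrial fusion and division, and it had 26.9 TPM (25.6 to 28.3) in replicate 2 and 78.2 TPM (76.4 to 80.0) in replicate 1. It ranked 13 among the members in replicate 2 and 3 in replicate 1. Slc25a45 had 16.6 TPM in replicate 2 and 1.79 TPM in replicate 1. Slc25a53 and Slc25a43 are X-linked and were low: Slc25a53 had 2.66 TPM (2.12 to 3.30) in replicate 2 and 4.12 TPM (3.57 to 4.73) in replicate 1, and Slc25a43 had 1.63 TPM (1.01 to 2.49) and 1.21 TPM (0.78 to 1.79). Slc25a48 had 0.37 TPM in replicate 2 and 0.070 TPM in replicate 1.

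The X chromosome holds 4 members: Slc25a5, Slc25a14, Slc25a53 and Slc25a43. Slc25a5 and Slc25a43 are neighbours, 18448 bases apart on the same strand, yet their levels differed 41.98-fold in replicate 2 and 37.4-fold in replicate 1, a pair chosen after values were seen. Slc25a5 alone of the 4 was above 11 TPM in either library. The median of the X-linked members was 4.555 TPM in replicate 2 and 7.405 TPM in replicate 1, against 14.9 TPM and 5.19 TPM for the 43 autosomal members, so the X-linked median was below the autosomal one in replicate 2 (ratio 0.307) and above it in replicate 1 (ratio 1.43). The medians of all protein-coding genes turned the same way. X-linked genes had 3.04 TPM in replicate 2 and 3.4 TPM in replicate 1, against 4.82 TPM and 1.8 TPM for autosomal genes. Over the 33 autosomal members at 1 TPM or more in both libraries the medians were 22.3 TPM in replicate 2 and 8.14 TPM in replicate 1, so against them the X-linked median was lower in both (ratios 0.204 and 0.910). With 4 genes this is a description only.

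Differences between the libraries were tested gene by gene, two-sided, by the exact binomial test on rounded counts scaled by the TMM method of edgeR, with Benjamini-Hochberg adjustment over the 18581 genes. Calls needed both a ratio of at least 2 and an adjusted p below 0.05. What is compared is the reads of 1 library with those of the other, and no condition or animal. By it, 20 of 47 members were higher in replicate 2, which is 42.6% of the family beside 32.1% of all tested genes, 8 were lower (17.0% beside 23.9%) and 19 were not called. Scaled by total counts instead, 23 members were higher and 4 lower, a scaling that moves the median log2 ratio of all tested genes by 0.29. The median log2 ratio of replicate 2 over replicate 1 was 0.37 over the members and -0.0042 over all tested genes. An adjusted p under 0.05 without the limit on the ratio was reached by 42 members (89.4%), beside 83.6% of all tested genes.

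By role, none of the adenine nucleotide and phosphate carriers was called higher in replicate 2, and Slc25a31 was lower (log2 ratio -1.03, adjusted p = 4.5e-109 by the binomial test with Benjamini-Hochberg adjustment), a sign that turned with the correction for GC content below. Among the ATP-Mg/phosphate carriers 3 of 5 were higher (Slc25a25 at 2.84, Slc25a41 at 2.73 and Slc25a23 at 1.44) and Slc25a24 was lower (-1.18). Among the di- and tricarboxylate carriers 4 of 6 were higher, by 7.20 for Slc25a10 (95% interval of the ratio 72.7 to 435), 4.19 for Slc25a34, 2.52 for Slc25a1 and 1.52 for Slc25a11, and Slc25a21 was lower (-1.05). Of the 10 amino acid and acylcarnitine carriers, Slc25a29, Slc25a22 (3.76), Slc25a38 (3.55) and Slc25a18 (1.25) were higher and none was lower. Of the 13 carriers of cofactors and iron, 6 were higher, among them Slc25a39 (4.91), Slc25a28 (4.39), Slc25a42 (2.68), Slc25a37 (1.18) and Slc25a26 (1.14), and Slc25a32 (-1.87), Slc25a40 (-1.77) and Slc25a36 (-1.39) were lower. Slc25a47 (3.80), Slc25a45 (2.77) and Slc25a48 (1.92) were higher and Slc25a46 (-1.86) was lower among the members with no assigned substrate. Among the uncoupling relatives, Slc25a14 was lower (-1.06). The correction for GC content described next turned the sign for Slc25a1, Slc25a11, Slc25a18, Slc25a21, Slc25a22, Slc25a23, Slc25a24, Slc25a28, Slc25a31 and Slc25a36 of these called members.

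The direction of these calls moved with base composition. The median GC content of the most abundant transcript was 56.2% in the members higher in replicate 2 (range 49.9% to 60.9%), 41.2% in the members lower there (38.8% to 46.5%) and 48.4% in the members not called. The ranges of the higher and the lower members did not overlap. The same ranges were not taken over all tested genes, so this cannot be read as particular to the family. Over the 47 members, Spearman's rho between GC content and the log2 ratio was 0.94, and over all tested genes it was 0.89. These are descriptions across genes, which share both libraries and are not replicates. The members' median GC content was 51.1% and that of all tested genes 49.1%.

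**Figure D3:**
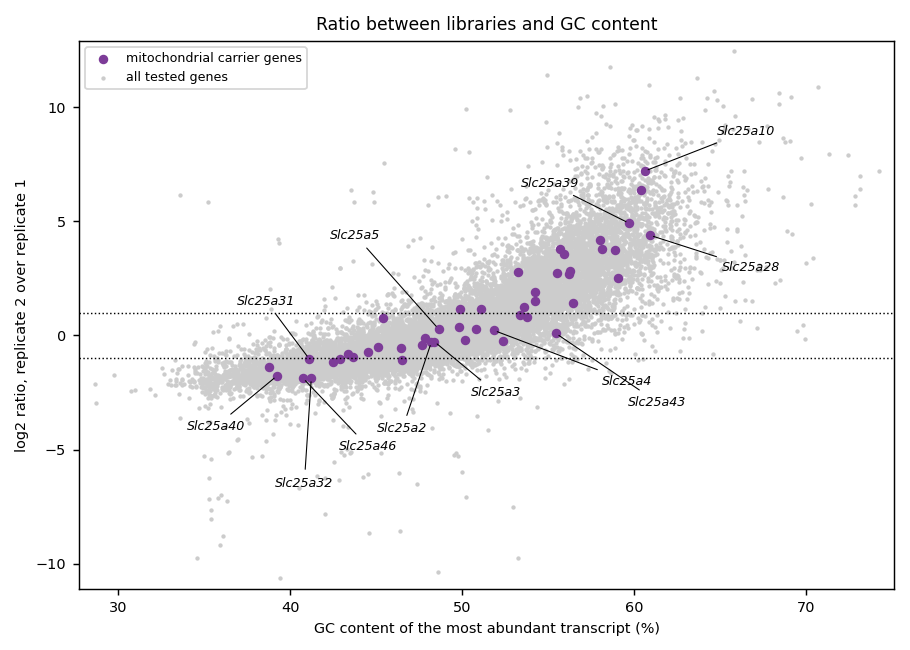
Log2 ratio of scaled counts, replicate 2 over replicate 1, against the GC content of each gene's most abundant transcript, for the 47 carrier genes (large points) and all tested genes with a known GC content (small grey points). Dotted lines mark a ratio of 2 in each direction. The carriers follow the cloud of all genes, from Slc25a40 and Slc25a36 at the low end of GC content to Slc25a28 and Slc25a10 at the high end.

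When the ratio expected of a gene was taken as the median over genes of like GC content, 5 members were above (10.6% beside 11.1% of all tested genes) and 4 below (8.51% beside 9.04%), so the family's shares were close to the background. With and without this correction, 4 members were called in the same direction, among them Slc25a10, with a corrected log2 ratio of 2.69, Slc25a45 (1.27) and Slc25a38 (1.09). The same count was not made over all tested genes. Slc25a30 was called higher after the correction alone (1.57). Slc25a43 (-2.08), Slc25a1 (-1.38), Slc25a23 (-1.17) and Slc25a35 (-1.04) were called lower after it, of which Slc25a1 and Slc25a23 had been called higher without it. The corrected log2 ratio was 0.38 for Slc25a31 and 0.73 for Slc25a39, neither of them called. Whether GC content produced the differences between the libraries was not tested.

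Of the 37 detected members, 10 had 1 transcript in the deposited tables, and of the other 27 the most abundant transcript was the same in both libraries for 19. The 8 others were Slc25a39, Slc25a1, Slc25a25, Slc25a36, Slc25a37, Slc25a38, Slc25a40 and Slc25a44. For Slc25a1 the protein-coding Slc25a1-201 held 71.9% of the level in replicate 2 and 26.6% in replicate 1, and the retained-intron transcript Slc25a1-202 held 17.0% and 73.4%. For Slc25a25 the full-length Slc25a25-201 held 70.2% in replicate 2 and 5.75% in replicate 1, and a transcript of 553 bases, Slc25a25-206, held 0% and 38.9%. The share of Slc25a25-206 in replicate 1 rested on 16.7 of the gene's 196 expected counts. For Slc25a38 a processed transcript of 420 bases held 12.7% in replicate 2 and 50.3% in replicate 1. Its share in replicate 1 rested on 5 expected counts, beside 34 for the protein-coding Slc25a38-201. In these genes replicate 1 gave more of the level to short or intron-retaining models. For Slc25a36 and Slc25a40 the shift was between long protein-coding transcripts: Slc25a36-202 held 48.3% in replicate 2 and 21.7% in replicate 1, and Slc25a40-201 held 54.8% and 15.03%. Slc25a44-201 held 71.0% in replicate 2 and 0% in replicate 1, where all of the level was given to Slc25a44-202, of 3418 bases beside 3577.

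**Figure D4:**
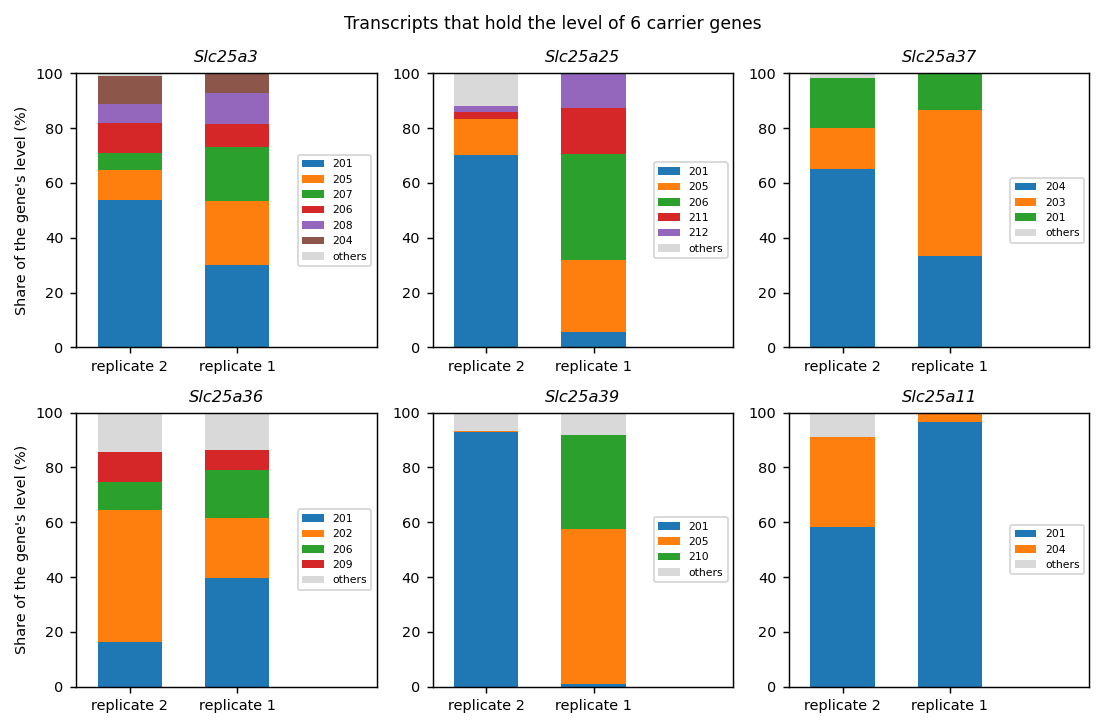
Share of a gene's level, in percent, held by each transcript in replicate 2 (left bar) and replicate 1 (right bar) for 6 carrier genes with several transcripts. Colours are the transcripts named by their GENCODE number in each panel's legend, and grey gathers those under 10% in both libraries. Slc25a39-201 fills 92.8% of the bar in replicate 2 and 0.84% in replicate 1, while Slc25a11-201 is the most abundant transcript in both.

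Among the leading members with several transcripts, Slc25a5-201 held 97.9% in replicate 2 and 98.4% in replicate 1, Slc25a4-201 100% and 99.4%, Slc25a20-201 98.5% and 98.5%, and Slc25a54-201 94.9% and 99.3%. Slc25a35-202 held 85.5% in replicate 2 and 89.2% in replicate 1. Slc25a3-201 led its gene in both libraries, at 53.8% and 30.1%. These shares are the authors' estimates and carry no error of their own here.

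The carriers work beside other transport genes of the mitochondrion, a list of 32 of which 31 were in the tables. At 1 TPM or more in both libraries were 27 of them. In replicate 2, 9 of the 31 were higher (29.03%, beside 32.1% of all tested genes) and 5 lower (16.1%, beside 23.9%). With the correction for GC content 5 were higher and 2 lower, where 11.1% and 9.04% of all tested genes were. The 3 of highest mean level were Mpc2, a subunit of the mitochondrial pyruvate carrier, with 409.6 TPM in replicate 2 and 799 TPM in replicate 1, the outer membrane channel Vdac3, with 389 TPM and 779.6 TPM, and its relative Vdac2, with 423 TPM and 533 TPM. Each was above every Slc25 member in replicate 1, and in replicate 2 only Slc25a39 was above them.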

How the data were processed

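PolyA mRNA from 1 mouse testis was sequenced in 2 technical libraries of the same biological replicate. The authors deposited, for each library, gene and transcript tables quantified from alignments to the mm10 transcriptome with annotation release M4, per the deposited notes; which aligner and quantifier were used is not given in the sources used here. They hold expected counts (estimated reads, which need not be whole), TPM and FPKM as scaled by the authors, a deposited posterior mean TPM and posterior SD of each count, and each transcript's percent of its gene's level, also deposited by the authors. Reads that fit several genes are divided between them; the highest deposited posterior SD of a member's count was 6.54 in replicate 2 and 0.90 in replicate 1.

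Names, types and positions came from GENCODE M21 (mm10, 1-based), matched for 42462 of 43346 genes; the 884 others held 0.242% of counts in replicate 2 and 0.306% in replicate 1. Members and gene lists were chosen with earlier results of these data known. Members are named by role, and 1 of them is counted but not reported here; full values go to the 10 of highest mean TPM, pair members, X-linked members and called members, and transcript shares to leading members and to those whose highest transcript differed.

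Expected counts were rounded and compared with an exact two-sided binomial test (scipy 1.17.1), with TMM factors of 1.11 in replicate 2 and 0.904 in replicate 1 from edgeR 4.0.16 in R 4.3.3, Benjamini-Hochberg adjustment over the 18581 genes averaging at least 10 counts, and 0.5 added to counts in log2 ratios. No spread between animals or library preparations enters these p-values. Pairs were compared by the ratio of TPM in a library with an exact 95% interval (Clopper-Pearson) from counts scaled by length, called when it excluded 1 on the same side in both libraries. The correction for GC content used 100 bins of equal gene number; GC content was known for 99.0% of tested genes. On simulated counts for this comparison, 91.5% of 200 genes changed 4-fold among 18568 were called. Those counts held sampling noise alone, unlike the real libraries, so this share does not carry over to them. Alternatives were other detection limits, FPKM or posterior mean TPM, single libraries, total counts, DESeq2 1.42.0 size factors, count filters, ratio limits, edgeR's exact test at a biological coefficient of variation assumed to be 0.1, unscaled lengths and GC content. Coding sequences were aligned with Biopython 1.88. Slc25a52 and Mpc1l were not analysed here.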

Additional observations from a re-analysis of the deposited data

How the results depend on the processing

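With 2 technical libraries of 1 animal, depth limits the members with few counts, and no alternative supplies a second animal. The 37 members detected became 20 at a limit of 5 TPM and lay between 37 and 45 in single libraries. The mean summed level lay between 797 TPM and 1499 TPM. The 20 members called higher in replicate 2 became 5 with the correction for GC content and stayed between 14 and 23 under the other alternatives. The 8 called lower became 4 with total counts, 4 with the correction and 0 at a ratio of 4. The log2 ratio of Slc25a31 over Slc25a4 lay between 0.90 and 2.15. That of Slc25a31 over Slc25a5, 0.53 as a mean, was not called; it lay between -0.12 (replicate 2 alone) and 1.18 (replicate 1 alone), and was 0.99 and called with counts not scaled by length. Of 14 pairs, 6 had opposite signs in the libraries, 1 was not called and 7 kept a lead. Without length scaling 9 did: 6 of those 7 and 3 others (Slc25a31 over Slc25a5, Slc25a37 over Slc25a28, Slc25a30 over Slc25a14), while Slc25a40 and Slc25a39 lost theirs. The rho with GC content was 0.93 with the longest transcript and 0.94 over the 37 members with a mean of 100 counts or more. For single members, the correction for GC content turned the sign of 21, of which 10 were called in neither fit. The other 11 were Slc25a1 (-1.38), Slc25a18 (-0.047), Slc25a11 (-0.11), Slc25a22 (-0.067), Slc25a36 (0.22), Slc25a21 (0.15), Slc25a43 (-2.08), Slc25a24 (0.011), Slc25a28 (-0.12), Slc25a23 (-1.17) and Slc25a31 (0.38). The cause was not tested. DESeq2 size factors left the side of the threshold of all 47 as it was, and total counts that of 40. No paired analysis was possible because there is 1 group.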

Other observations

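Carriers of the same fold that are named otherwise gave a further description. Mtch2, an outer membrane protein that inserts other proteins into that membrane, had 503 TPM in replicate 2 and 1084 TPM in replicate 1, above each Slc25 gene except Slc25a39 in replicate 2. Its relative Mtch1 had 34.15 TPM in replicate 2 and 1.95 TPM in replicate 1. Of the uncoupling proteins, Ucp2 had 26.6 TPM in replicate 2 and 1.57 TPM in replicate 1. Ucp1, the heat-producing carrier of brown fat, had 0.15 TPM and 0.060 TPM, and Ucp3, its muscle relative, had 0.37 TPM and 0.14 TPM. By the same binomial test with Benjamini-Hochberg adjustment, Mtch1 and Ucp2 were higher in replicate 2, by 4.53 and 4.03 on the log2 scale, and Mtch2 was lower (-1.02). The GC content of their most abundant transcripts was 61.1% for Mtch1, 55.0% for Ucp2 and 49.2% for Mtch2, and with the correction for it Ucp2 was higher (1.75), Mtch2 was lower (-1.01) and Mtch1 was not called (0.019).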
